A study of Mus musculus with 6 samples.

Results

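The 9 genes described here encode proteins that bind double-stranded RNA or make and use microRNAs. In the order of the steps at which they act they are Drosha, Dgcr8, Xpo5, Dicer1, Tarbp2, Prkra, Ago1, Ago2 and Stau1. A microRNA is cut from a hairpin in a longer primary transcript. In the nucleus the Microprocessor, the nuclease DROSHA with its partner DGCR8, frees the hairpin, and Exportin-5 carries it to the cytoplasm. There DICER, held by the double-stranded RNA-binding proteins TRBP (from Tarbp2) and PACT (from Prkra), trims it to a short duplex, and an Argonaute protein keeps a single strand as the guide that finds target messages. PACT and TRBP are also known as an activator and an inhibitor of PKR, the kinase that senses double-stranded RNA, and Staufen, from Stau1, binds double-stranded stretches of messages and recruits the decay factor UPF1. The 9 genes were chosen by name, not by their values, although earlier results of these data were known. Each was found on a single row among 23406 row names.

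The study profiled mouse embryonic fibroblasts at day 7 of reprogramming with OSKM (Oct4, Sox2, Klf4 and Myc), by sequencing of total RNA after removal of ribosomal RNA. Adar alleles and treatment divide the 6 libraries into 4 groups. KO cells were Adar Fl/Fl with 4OHT (n = 2) and WT cells were Adar Fl/Fl with vehicle (n = 2). MUT cells were Adar Fl/E861A with 4OHT (n = 1) and HET cells were Adar Fl/E861A with vehicle (n = 1). Every group thus carries a floxed Adar allele, and Adar encodes ADAR1, the enzyme that converts adenosine to inosine within double-stranded RNA. 4OHT (4-hydroxytamoxifen) is the usual inducer of Cre, the recombinase that removes floxed sequence; the labels used here name neither the Cre driver nor the deleted exons, and without cells that received 4OHT and kept Adar, an effect of 4OHT or Cre and that of losing Adar cannot be told apart. MUT cells are left with the E861A allele, a change known to abolish editing. Separate cultures for the replicates are not stated, and all p-values are therefore relative to a spread between libraries that may be technical.

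Values are FPKM, fragments scaled to transcript length and library size, which can be compared between genes in this respect. They carry no read totals. Steps of the low values put the libraries at 0.86 to 1.16 times the depth of WT 1, and these ratios are estimates. Adar itself was not lower in KO, at 34.2 and 31.3 FPKM, than in WT, at 19.6 and 19.5 FPKM, and it was at 33.0 FPKM in MUT and 17.0 FPKM in HET. Since the level of a gene summed over its exons may hide the loss of a few of them, this does not check the labels, and every direction below rests on them. Markers of cell state moved with the groups. Their counts are calls of limma, the test described below, which called 28.2% of all tested genes lower and 29.5% higher in KO. Pluripotency markers were called lower in KO in 10 of 10 cases (summed level 17.8 to 34.0 FPKM in KO and 581 to 705 FPKM in WT). So were 8 of 8 proliferation markers (59.1 to 65.4 FPKM in KO and 333 to 357 FPKM in WT). The same held for 7 of 7 epithelial markers (9.68 to 11.4 FPKM in KO and 137 to 150 FPKM in WT). Of 10 fibroblast markers 9 were called lower, all but Thy1 at -0.25 on the log2 scale (summed level 623 to 739 FPKM in KO and 3504 to 3882 FPKM in WT). The same sums were 49.6, 124, 13.6 and 1772 FPKM in MUT and 733, 489, 182 and 4051 FPKM in HET. The pluripotency list includes Pou5f1 (Oct4) and Sox2, which are also OSKM factors. These FPKM do not tell reads of the reprogramming factors from those of the cells' own genes. In WT, Pou5f1 was at 222 and 175 FPKM and Sox2 at 32.7 and 26.6 FPKM. Of markers of other cells, the neural list was lower in 3 of 3 tested genes (42.1 to 56.0 FPKM in KO and 145 to 159 FPKM in WT), the endothelial list higher in 1 and lower in 3 of 4 tested (5.37 to 5.40 FPKM in KO and 5.90 to 6.03 FPKM in WT), and the macrophage list lower in 2 of 3 tested (436 to 449 FPKM in KO and 653 to 667 FPKM in WT). Nearly all of the macrophage sum came from a row that names Cd68 together with Eif4a1, a translation factor gene of most cells, and Senp3, so neither that level nor its lower call can be given to Cd68. The other lower call of that list was Laptm5, at 3.31 and 2.83 FPKM in KO and 23.4 and 19.9 FPKM in WT, and Tyrobp was not called. Of these 3 lists no marker was at 0 in all 6 libraries. The low ones included Ptprc, Cx3cr1 and Cdh5, which stayed at or under 0.080 FPKM in each. Others of the same lists were higher, with Tyrobp at 4.17 FPKM and Tek at 4.83 FPKM in HET, and Kdr at 3.41 FPKM in KO 1. The low levels of some markers therefore do not show that such cells were absent. The part of these cell-state differences in the results below was not tested, and in such bulk samples fewer cells of a type and less RNA per cell cannot be told apart.

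KO against WT addresses the loss of ADAR1 during reprogramming. Among the 9 genes, Drosha, Dicer1 and Tarbp2 fell in KO and Stau1 rose. Every change was under 1.5-fold. The other 5 genes, Dgcr8, Xpo5, Prkra, Ago1 and Ago2, did not pass the test. The test was limma on log2(FPKM + 1) over 12266 genes, called at an adjusted p under 0.05. It called 57.7% of all tested genes, 28.2% lower and 29.5% higher in KO, so 4 of 9 is no larger a share than that of genes at large. All genes differed by a median of 0.02 on the log2 scale and the 9 genes by a median of -0.17, and the median size of a difference, whatever its sign, was 0.26 for the 9 genes and 0.36 for all genes. A difference of at least 1.5-fold on this scale was found in 0 of the 9 genes, against 30.8% of all genes. Leaving out WT 1 or KO 2 ended some of the 4 calls, as given for each gene below. Over the alternative settings the log2 difference ran from -0.50 to -0.30 for Drosha and from -0.50 to -0.37 for Dicer1. For Tarbp2 it ran from -0.44 to -0.20 and for Stau1 from 0.26 to 0.35. Libraries of KO and WT did not overlap for 9 of 9 genes, 4 higher and 5 lower in KO, as for 78.8% of all genes. Between replicates 0 of the 9 passed 1.5-fold, KO 1 against KO 2 (0.872% of all genes) or WT 1 against WT 2 (0.84%). Since 0 of the 9 passed it between KO and WT either, that cut does not set replicate spread against the effects. The median size of a log2 difference among the 9 was 0.11 between the KO replicates and 0.07 between the WT replicates. The largest gaps were those of Prkra, -0.25 for KO 1 minus KO 2 and 0.24 for WT 1 minus WT 2. Its KO difference was 0.26.

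**Figure D1:**
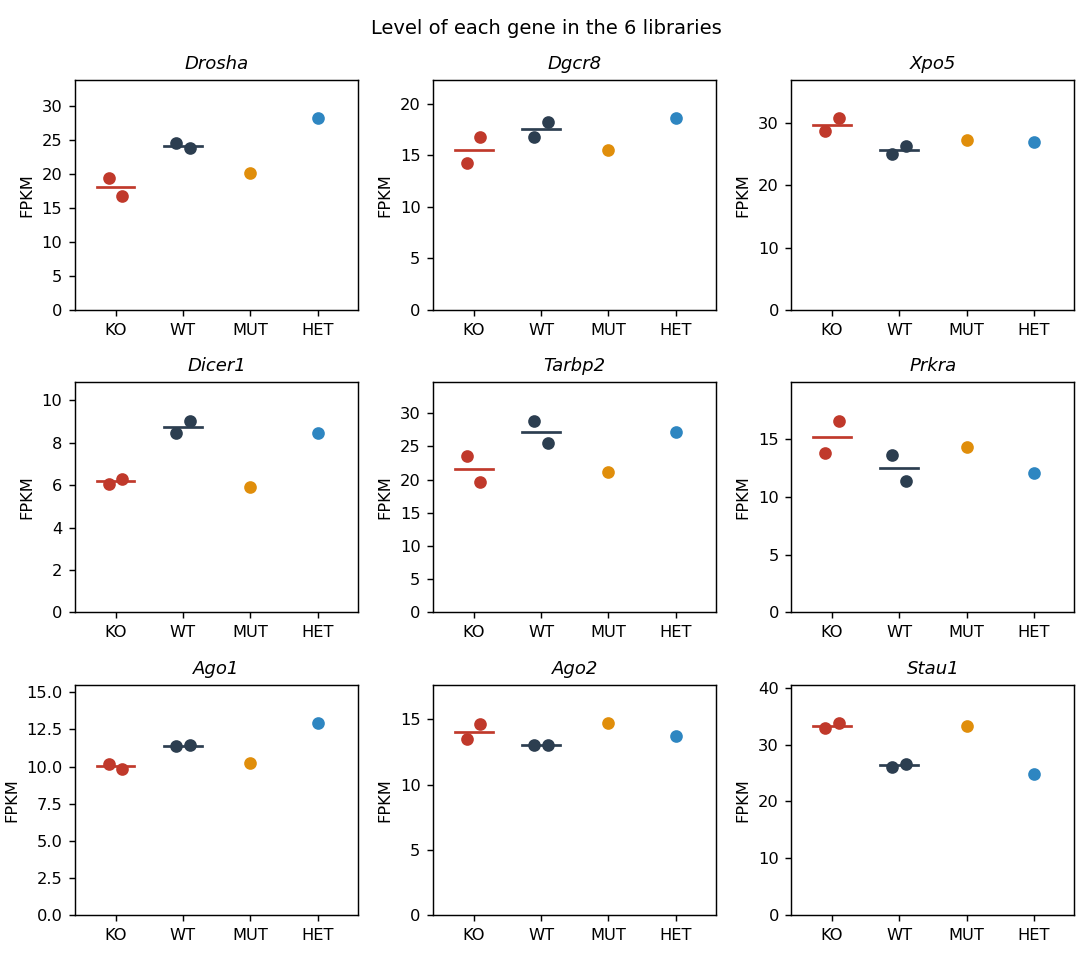
FPKM (vertical axis, from 0) of each of the 9 genes in the KO, WT, MUT and HET libraries, with a point for each library and a bar at the mean of each pair. Drosha, Dicer1 and Tarbp2 are lower in the KO pair and MUT than in the WT pair and HET, and Stau1 is higher, at 33.0 to 33.8 FPKM against 24.8 to 26.7 FPKM.

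Drosha encodes the nuclease of the Microprocessor (ENSMUSG00000022191.16, GRCm38 chromosome 15, 12824815 to 12935291, plus strand). Its level was 19.4 and 16.7 FPKM in KO 1 and KO 2, against 24.4 and 23.7 FPKM in WT 1 and WT 2, and 20.1 FPKM in MUT against 28.2 FPKM in HET. All 3 libraries with 4OHT lay below all 3 with vehicle, and the HET library stood above both WT libraries. The KO mean of 18.1 ± 1.90 FPKM was 0.75 times the WT mean of 24.1 ± 0.49 FPKM (SD, n = 2 each). On the log2 scale it fell by 0.40 (SE 0.10, limma adjusted p = 0.00807). Leaving out WT 1 or KO 2 ended the call, at an adjusted p of 0.053 or 0.052. MUT differed from HET by -0.47, with a single library on each side.

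Dgcr8 encodes the RNA-binding partner of DROSHA (ENSMUSG00000022718.12, chromosome 16, 18253948 to 18289246, minus strand). It stood at 14.3 and 16.8 FPKM in the KO libraries, against 16.8 and 18.3 FPKM in the WT libraries, and at 15.5 FPKM in MUT against 18.6 FPKM in HET. KO 2 and WT 1 were almost level, and the log2 difference of -0.17 (SE 0.11) had a limma adjusted p of 0.211. Its 95% interval ran from -0.42 to 0.08, which leaves room for a fall as large as that of Drosha. The locus deposited for Dgcr8 is also that of the rows Trmt2a and Ranbp1, and 17.1% of its annotated exonic bases are also exonic in other genes, Trmt2a on the opposite strand among them. The use of strand is not given in the sources used here, so reads from such stretches may be shared. The row of Trmt2a was at 13.8 and 13.2 FPKM in KO, against 13.3 and 13.2 FPKM in WT, and was not called. Ranbp1, which is not among the genes annotated to share exonic bases with Dgcr8, fell, in the direction of the uncalled difference of Dgcr8. It was at 168 and 207 FPKM in KO, against 234 and 230.4 FPKM in WT, and at 183 FPKM in MUT against 268 FPKM in HET. The log2 difference of Ranbp1 between KO and WT was -0.31 (limma adjusted p = 0.0372).

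The Dgcr8 message is itself known to hold hairpins that the Microprocessor cuts. RefSeq (GRCm38.p6) places miR-1306 in a coding exon of Dgcr8, and both of its arms are shown because they mark that hairpin, which lies in the message of a Microprocessor subunit. Sequences run 5′ to 3′, with the seed, bases 2 to 8, in capitals. The 3p arm is at chr16:18284248-18284268 and the 5p arm at chr16:18284288-18284310, both on the minus strand.
mmu-miR-1306-5p: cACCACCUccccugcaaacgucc
mmu-miR-1306-3p: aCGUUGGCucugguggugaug
Levels of these arms were not analysed here, and reads from the hairpin would fall within the exons of Dgcr8. The ratio of Drosha to Dgcr8 in a library, which is free of scaling between libraries, was 1.36 and 0.997 in KO and 1.45 and 1.30 in WT, with 1.30 in MUT and 1.51 in HET. These pairs overlapped, and the difference of -0.24 in the log2 ratio between KO and WT was no larger than the replicate SD of 0.24.

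Xpo5 encodes Exportin-5, the carrier of hairpins out of the nucleus (ENSMUSG00000067150.6, chromosome 17, 46202782 to 46243598, plus strand). Its level was 28.7 and 30.8 FPKM in KO, against 25.0 and 26.3 FPKM in WT, and 27.3 FPKM in MUT against 26.9 FPKM in HET. The KO libraries lay above the WT libraries, while MUT and HET differed by 0.02 on the log2 scale. The KO difference of 0.20 (SE 0.10) did not pass the test (limma adjusted p = 0.0969). Xpo5 shares its deposited locus with Yipf3, Polr1c and Mir693, an intronic hairpin listed at 0 in all 6 libraries. None of its annotated exonic bases lies in an exon of another gene, but the deposited locus runs on to 46252537, past the annotated end. Yipf3 was at 74.3 and 72.6 FPKM in KO, against 57.4 and 56.7 FPKM in WT. Polr1c was at 40.2 and 46.2 FPKM in KO, against 50.7 and 47.6 FPKM in WT.

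Dicer1 encodes the nuclease that trims hairpins in the cytoplasm (ENSMUSG00000041415.10, chromosome 12, 104687742 to 104751952, minus strand). It had the lowest level of the 9 genes and the largest fall, with 6.06 and 6.30 FPKM in KO, against 8.48 and 9.04 FPKM in WT, and 5.93 FPKM in MUT against 8.46 FPKM in HET. The 3 libraries with 4OHT fell within a narrow range, 5.93 to 6.30 FPKM, well apart from the 8.46 to 9.04 FPKM of the 3 with vehicle. The KO mean was 6.18 ± 0.17 FPKM and the WT mean 8.76 ± 0.40 FPKM (SD, n = 2 each), a ratio of 0.71 between means, with a log2 difference of -0.44 (SE 0.10, limma adjusted p = 0.00421). It was called under each of the 14 alternative settings, with adjusted p between 0.00107 and 0.0375. MUT differed from HET by -0.45 on the log2 scale.

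Tarbp2, for TRBP (ENSMUSG00000023051.11, chromosome 15, 102518192 to 102523676, plus strand), and Prkra, for PACT (ENSMUSG00000002731.6, chromosome 2, 76629898 to 76648015, minus strand), encode related partners of DICER. Tarbp2 was at 23.5 and 19.7 FPKM in KO, against 28.9 and 25.5 FPKM in WT, and at 21.1 FPKM in MUT against 27.1 FPKM in HET. It fell by 0.32 on the log2 scale in KO (SE 0.12, limma adjusted p = 0.0352), a call that ended when WT 1 or KO 2 was left out, at an adjusted p of 0.221 or 0.207, and when genes of low level were kept in, at 0.137. Prkra was at 13.8 and 16.6 FPKM in KO, against 13.6 and 11.3 FPKM in WT, and at 14.3 FPKM in MUT against 12.0 FPKM in HET. KO 1 and WT 1 lay close together, and the log2 difference of 0.26 (SE 0.12) did not pass the test (limma adjusted p = 0.0933), although it did without KO 1 (adjusted p = 0.0127). In each library Tarbp2 was the higher of the pair. The ratio of Tarbp2 to Prkra was 1.71 and 1.19 in KO, against 2.12 and 2.25 in WT, and 1.48 in MUT against 2.26 in HET. The 3 ratios with 4OHT lay below the 3 with vehicle, and the log2 ratio differed by -0.62 between KO and WT, against a replicate SD of 0.27, and by -0.61 between MUT and HET. All ratios within a library, here and below, are given as a description with no test of their own. How often ratios of other gene pairs part the groups was not tested. An exact two-sided permutation test of 2 libraries against 2 cannot give a p below 0.33. The kinase that both proteins act on, PKR, comes from Eif2ak2, whose row also names Sult6b1 and stood at 68.6 and 74.0 FPKM in KO, against 49.9 and 54.6 FPKM in WT (log2 difference 0.44, limma adjusted p = 0.00328).

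**Figure D2:**
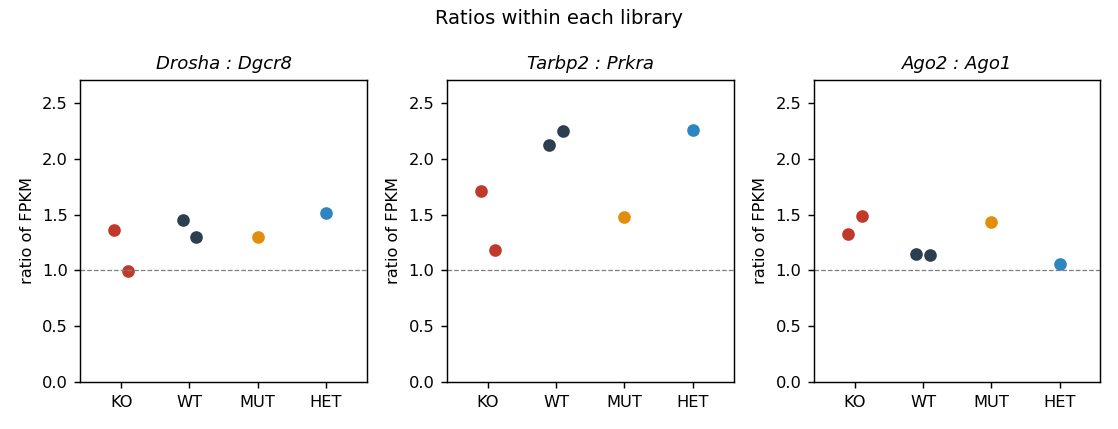
Ratios of FPKM within each library (vertical axis, from 0, dashed line at 1) for Drosha to Dgcr8, Tarbp2 to Prkra and Ago2 to Ago1 in the KO, WT, MUT and HET libraries, a point for each library. For Tarbp2 to Prkra the libraries with 4OHT span 1.19 to 1.71 and those with vehicle 2.12 to 2.26, and for Ago2 to Ago1 they span 1.33 to 1.49 and 1.06 to 1.15, while for Drosha to Dgcr8 the groups overlap.

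Ago1 and Ago2 encode Argonaute proteins that hold the guide strand, and AGO2 is the family member known for cutting targets. Ago1 (ENSMUSG00000041530.16, chromosome 4, 126435012 to 126468583, minus strand) was at 10.2 and 9.84 FPKM in KO, against 11.4 and 11.5 FPKM in WT, and at 10.3 FPKM in MUT against 12.9 FPKM in HET. Each library with 4OHT lay below each with vehicle, but the log2 difference between KO and WT, -0.17 (SE 0.10), did not pass the test (limma adjusted p = 0.156). Ago2 (ENSMUSG00000036698.11, chromosome 15, 73095844 to 73184935, minus strand) was at 13.5 and 14.6 FPKM in KO, against 13.1 and 13.0 FPKM in WT, and at 14.7 FPKM in MUT against 13.7 FPKM in HET. Its log2 difference in KO was 0.10 (SE 0.10, limma adjusted p = 0.416), the smallest of the 9, and it was the single gene of the 9 whose 4OHT and vehicle libraries overlapped. The ratio of Ago2 to Ago1 was 1.33 and 1.49 in KO, against 1.15 and 1.14 in WT, and 1.43 in MUT against 1.06 in HET. The log2 ratio differed by 0.30 between KO and WT, against a replicate SD of 0.08. The related genes Ago3 and Ago4 neighbour Ago1 on chromosome 4. Ago3 was at 5.04 and 7.54 FPKM in KO, against 3.44 and 4.65 FPKM in WT (log2 difference 0.52, limma adjusted p = 0.0239), and at 3.63 FPKM in MUT against 3.36 FPKM in HET. Ago4 was low, at 1.08 and 1.44 FPKM in KO and 0.89 and 0.92 FPKM in WT, and was not called. Reads from stretches alike between Argonaute genes could be split among them.

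Stau1 encodes Staufen (ENSMUSG00000039536.16, chromosome 2, 166947549 to 166996299, minus strand) and was the gene of the 9 that rose. Its level was 33.0 and 33.8 FPKM in KO, against 26.1 and 26.7 FPKM in WT, and 33.3 FPKM in MUT against 24.8 FPKM in HET. Replicates lay within 1 FPKM of each other and the 4OHT and vehicle libraries stood well apart. The KO mean was 33.4 ± 0.62 FPKM and the WT mean 26.4 ± 0.41 FPKM (SD, n = 2 each), a ratio of 1.26 and a log2 difference of 0.33 (SE 0.09, limma adjusted p = 0.0123). Leaving out WT 1 or WT 2 ended the call, at an adjusted p of 0.0716 or 0.0506, with log2 differences of 0.31 or 0.34. Its paralog Stau2 was lower in level and differed by more, with 8.69 and 10.5 FPKM in KO, against 3.64 and 3.79 FPKM in WT, and 7.21 FPKM in MUT against 3.38 FPKM in HET (log2 difference between KO and WT 1.16, SE 0.12, limma adjusted p = 1.45e-05). Upf1, the helicase that Staufen recruits to messages, fell, with 22.0 and 20.6 FPKM in KO, against 31.3 and 32.5 FPKM in WT (log2 difference -0.56, limma adjusted p = 0.000598).

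**Figure D3:**
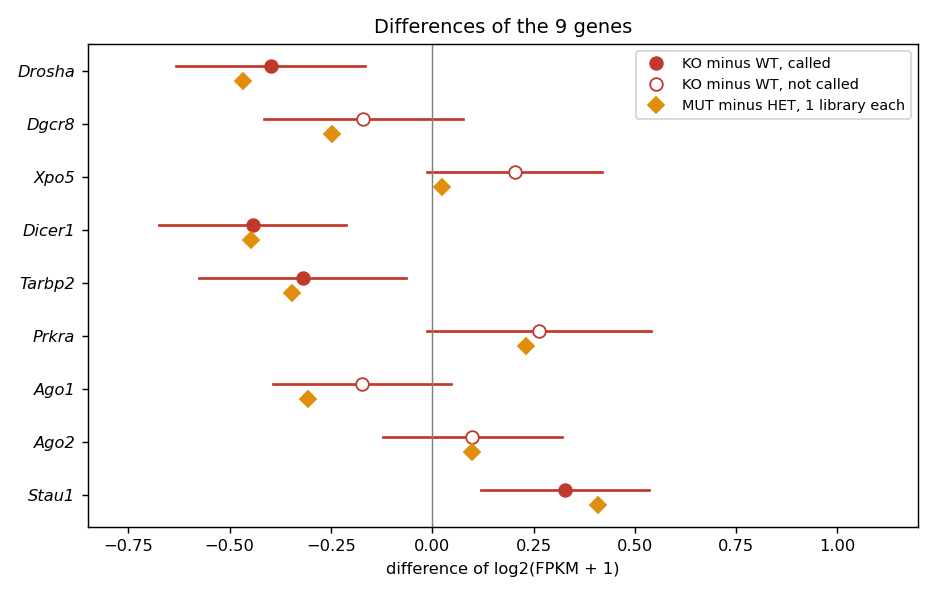
Difference of log2(FPKM + 1) (horizontal axis) for the 9 genes, with KO minus WT as circles with limma's 95% interval (filled where the adjusted p was under 0.05) and MUT minus HET as diamonds, which rest on a single library each. Dicer1 lies at -0.44 and -0.45 and Stau1 at 0.33 and 0.41, and each diamond lies on the same side of 0 as its circle.

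The order of levels was as follows. In KO the genes ran from Stau1 (33.4 ± 0.62 FPKM) through Xpo5, Tarbp2, Drosha, Dgcr8, Prkra, Ago2 and Ago1 to Dicer1 (6.18 ± 0.17 FPKM), and in WT from Tarbp2 (27.2 ± 2.41 FPKM) through Stau1, Xpo5, Drosha, Dgcr8, Ago2, Prkra and Ago1 to Dicer1 (8.76 ± 0.40 FPKM; SD, n = 2 each). Libraries of neighbours overlapped in KO for Drosha and Dgcr8, Dgcr8 and Prkra, and Prkra and Ago2. In WT they overlapped for Tarbp2 and Stau1, Stau1 and Xpo5, Ago2 and Prkra, and Prkra and Ago1. Over the 6 libraries the 9 genes lay between the percentiles 35.5 (Dicer1) and 74.6 (Stau1) of mean level among tested genes.

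MUT against HET addresses cells whose remaining Adar allele cannot edit. Stau1, Prkra, Ago2 and Xpo5 were higher in MUT and Dicer1, Drosha, Tarbp2, Ago1 and Dgcr8 lower, with log2 differences from -0.47 (Drosha) to 0.41 (Stau1). None of the 9 reached 1.5-fold, against 30.8% of all 12266 genes, and with 1 library a group these differences have no replicate check of their own. A limma fit with the spread pooled over the 4 groups assumes that the lone libraries vary like the pairs. It gave adjusted p-values under 0.05 for Drosha (0.0276), Stau1 (0.0303) and Dicer1 (0.0318). That fit called 5309 of all 12266 genes, so 3 of 9 is no larger a share than that of genes at large. Whether the KO and MUT effects differ was tested in limma over all 6 libraries, on the same assumption. It called 0 of the 9 genes, with 0 at an unadjusted p under 0.05, and 4.01% of all genes (0.946% with a positive and 3.07% with a negative difference, KO effect minus MUT effect). The largest difference of effects among the 9 was that of Xpo5, 0.18 on the log2 scale, with an interval of -0.19 to 0.55, and that of Dicer1 was 0.01 with an interval of -0.40 to 0.41. The intervals are wider than the effects themselves, so the data do not show that the effects are equal.

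Taking the allele background as a covariate, the 3 libraries with 4OHT were compared with the 3 with vehicle. This comparison shares its KO and WT libraries with the one above. It called the same 4 genes, Dicer1 (log2 difference -0.44, limma adjusted p = 0.00233), Drosha (-0.42, adjusted p = 0.00389), Stau1 (0.35, adjusted p = 0.00516) and Tarbp2 (-0.33, adjusted p = 0.0201), where 57.4% of all genes were called, 29.2% higher and 28.2% lower with 4OHT. Ago1 lay just outside (-0.22, adjusted p = 0.0515). The 4OHT and vehicle libraries did not overlap for 8 of the 9 genes, 3 higher and 5 lower with 4OHT, and the same held for 59.9% of all genes. Within a treatment the genes differed less. Between HET and WT the log2 differences ran from -0.08 (Stau1) to 0.22 (Drosha), and between MUT and KO from -0.12 (Xpo5) to 0.15 (Drosha). In each of these 0 of the 9 passed 1.5-fold, against 9.28% of all genes between HET and WT and 8.64% between MUT and KO.

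Promoters of the 3 called genes with the largest differences are shown, since Drosha and Dicer1 fell together and Stau1 moved the other way. Each runs from 250 bases before to 50 after the RefSeq start (GRCm38.p6), 5′ to 3′ on the gene's strand. Capitals mark every match on either strand to any of 6 motifs, and no matches overlapped in these 3 promoters. The GC box, bound by SP-family factors, was searched as GGGCGG. The box known for binding NF-Y was searched as CCAAT. The E box, which MYC and its relatives bind, was searched as CACGTG. The motif of CREB, called CRE, was searched as TGACGTCA. The core bound by ETS factors was searched as CCGGAA, and the palindromic core of NRF1 is given by name alone. The windows are chr15:12824565-12824864 (plus) for Drosha, chr12:104751903-104752202 (minus) for Dicer1 and chr2:166996250-166996549 (minus) for Stau1.
Drosha: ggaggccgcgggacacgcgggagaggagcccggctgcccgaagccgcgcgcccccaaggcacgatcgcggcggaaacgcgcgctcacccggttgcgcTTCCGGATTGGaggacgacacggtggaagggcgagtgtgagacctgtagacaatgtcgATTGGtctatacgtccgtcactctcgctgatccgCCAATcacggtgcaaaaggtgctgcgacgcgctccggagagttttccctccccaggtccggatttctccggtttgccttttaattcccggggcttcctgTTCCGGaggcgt
Dicer1: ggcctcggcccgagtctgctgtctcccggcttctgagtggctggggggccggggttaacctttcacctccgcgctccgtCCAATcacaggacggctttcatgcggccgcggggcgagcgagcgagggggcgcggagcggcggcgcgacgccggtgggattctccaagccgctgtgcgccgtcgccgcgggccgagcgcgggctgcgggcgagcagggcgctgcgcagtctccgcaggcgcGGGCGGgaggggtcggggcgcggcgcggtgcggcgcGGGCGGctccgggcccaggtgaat
Stau1: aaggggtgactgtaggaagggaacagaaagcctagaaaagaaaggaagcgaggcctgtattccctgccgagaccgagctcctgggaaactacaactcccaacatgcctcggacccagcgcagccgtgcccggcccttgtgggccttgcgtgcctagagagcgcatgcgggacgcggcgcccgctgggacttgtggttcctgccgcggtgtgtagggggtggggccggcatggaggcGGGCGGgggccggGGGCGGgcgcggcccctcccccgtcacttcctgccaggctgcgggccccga
Drosha held 3 CCAAT boxes and 2 ETS cores, Dicer1 2 GC boxes and 1 CCAAT box, and Stau1 2 GC boxes. RefSeq windows were at hand for 8 of the 9 genes. Of these 7 held a GC box and 5 a CCAAT box, against 35.7% and 37.4% of 32851 promoter windows of that length. The ETS core was found in Drosha and the NRF1 core in Xpo5, against 14.9% and 1.0% of all windows. No window held the E box or CRE, which 7.2% and 1.8% of all windows hold. The 8 windows were rich in G and C, at 59.0% to 77.3% against a median of 52.7%, and a match is no more than a match of letters.

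Of 56 genes on 5 lists of cofactors, partners and targets of the pathway 54 were tested, and in KO 14 were higher, 17 lower and 23 not called, a share of calls close to the 57.7% of all genes. Of 7 genes of nuclear cofactors and export 4 fell, 0 rose and 3 were not called (median log2 difference -0.54). Hnrnpa1, an RNA-binding protein known to aid the cutting of certain primary microRNAs, was at 246 and 277 FPKM in KO, against 541 and 613 FPKM in WT (log2 difference -1.14, SE 0.11, limma adjusted p = 9.94e-06). Srrt, which encodes ARS2 and links the cap-binding complex to the Microprocessor, was at 31.6 and 32.9 FPKM in KO, against 56.4 and 54.1 FPKM in WT (-0.76, adjusted p = 6.29e-05), and Khsrp, a binder of certain microRNA hairpins, fell by 0.65 (adjusted p = 0.00286). The helicase genes Ddx5 and Ddx17, whose products join the Microprocessor, were not called (-0.12 and 0.01).

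Among genes that act on let-7, a microRNA family of differentiated cells, or are its targets, Lin28a, Lin28b and Trim71 fell to under 1 FPKM in KO. LIN28 proteins bind the let-7 precursor and block its processing. Lin28a was at 0.17 and 0.11 FPKM in KO, against 4.02 and 3.26 FPKM in WT (log2 difference -2.02, SE 0.14, limma adjusted p = 8.08e-07). It was at 0.37 FPKM in MUT against 1.58 FPKM in HET, a single library each, with HET below both WT libraries. Lin28a passed the filter through the vehicle libraries alone. The KO and MUT effects on Lin28a differed by -1.11 on the log2 scale (limma adjusted p = 0.0307), although without the filter on low values that fit called 0 genes. Lin28b was at 0.12 and 0.19 FPKM in KO, against 1.25 and 2.38 FPKM in WT (-1.26, adjusted p = 0.000216). Trim71, a known let-7 target of pluripotent cells, was at 0.51 and 0.26 FPKM in KO, against 6.27 and 6.02 FPKM in WT (-2.37, adjusted p = 2.03e-07), and at 0.53 FPKM in MUT against 6.98 FPKM in HET. Of 6 tested genes of this list 3 fell, 2 were not called and 1, the uridyltransferase gene Zcchc6, rose. Lin28a is itself a gene of pluripotent cells, and the pluripotency markers given above moved with it.

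Of 20 silencing partners 5 rose, 5 fell and 10 were not called (median -0.04). Ajuba, Limd1 and Wtip, which encode related LIM proteins known to join Argonaute complexes, all rose. Ajuba was at 46.9 and 42.9 FPKM in KO, against 15.9 and 16.3 FPKM in WT (log2 difference 1.42, limma adjusted p = 9.2e-07), and Limd1 and Wtip differed by 0.67 and 0.53. Of the genes for GW182 proteins, the scaffolds that Argonautes recruit, Tnrc6b fell by 0.45 (adjusted p = 0.00566), while Tnrc6a (-0.23) and Tnrc6c (-0.15) were not called. Of 15 other genes for double-stranded RNA-binding proteins and their partners 6 rose, 4 fell and 5 were not called (median -0.00). Beside Stau2, the smallest p-values were those of Ilf2, a partner of the hairpin-binding protein NF90, at 25.3 and 29.0 FPKM in KO, against 49.4 and 54.3 FPKM in WT (-0.91, adjusted p = 3.87e-05), and Adarb1, for the editing enzyme ADAR2, which fell by 0.95 (adjusted p = 0.000109).

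**Figure D4:**
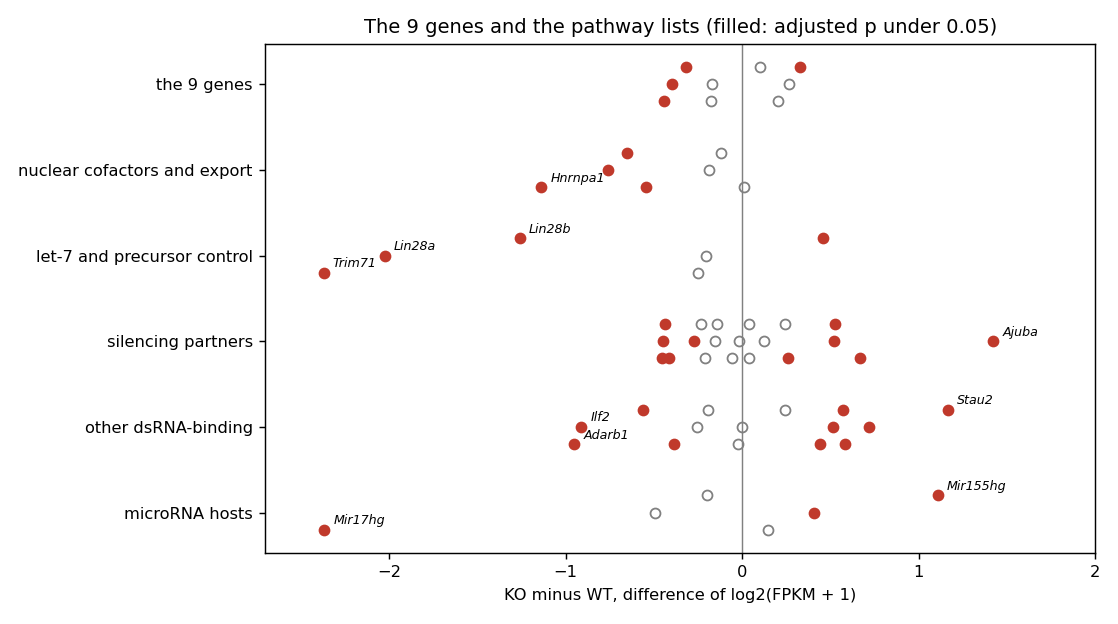
KO minus WT difference of log2(FPKM + 1) (horizontal axis) of the 9 genes and of 54 tested genes on 5 pathway lists, a circle for each gene, filled where limma's adjusted p was under 0.05 (vertical offsets only separate circles). The 9 genes lie between -0.44 and 0.33, while Trim71, Lin28a and Mir17hg lie below -2 and Ajuba, Stau2 and Mir155hg above 1.

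Of 8 microRNA host transcripts 6 were tested, and 2 rose, 1 fell and 3 were not called. The row that names Mir17hg, the host of the miR-17 to miR-92a cluster, known in proliferating and pluripotent cells, was at 1.60 and 1.24 FPKM in KO, against 10.6 and 12.4 FPKM in WT, and at 1.94 FPKM in MUT against 16.0 FPKM in HET (log2 difference between KO and WT -2.37, SE 0.13, limma adjusted p = 1.61e-07). Mir155hg, the host of a microRNA known in inflammatory responses, whose row also names Mir155, was at 1.29 and 1.80 FPKM in KO, against 0.19 and 0.16 FPKM in WT, and at 1.77 FPKM in MUT against 0.34 FPKM in HET (1.11, adjusted p = 0.000107). Mir22hg, on a row that also names Mir22, was at 28.6 and 33.2 FPKM in KO, against 22.8 and 23.3 FPKM in WT, and at 32.1 FPKM in MUT against 18.2 FPKM in HET (0.41, adjusted p = 0.00714). These 3 were named for the smallest p-values of their list in KO against WT. That their 4OHT and vehicle libraries did not overlap follows in part from that choice, and it held for 59.9% of all genes. Of the mature arms whose hairpins lie within the 3 rows, 5 are shown with the seed in capitals. Such arms are what the enzymes of this pathway would release from these transcripts.
mmu-miR-20a-5p: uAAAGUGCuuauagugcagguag
mmu-miR-19b-3p: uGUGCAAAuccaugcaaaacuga
mmu-miR-92a-3p: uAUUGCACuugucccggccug
mmu-miR-155-5p: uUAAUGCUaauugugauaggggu
mmu-miR-22-3p: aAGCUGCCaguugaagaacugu
The first 3 lie in the Mir17hg row on chromosome 14, which spans 6 of the 11 arms listed for its cluster. Those of miR-17, miR-18a and miR-19a lie outside it. The seeds of the 5 shown differ, but miR-17-5p has the seed of miR-20a-5p, and miR-19a-3p that of miR-19b-3p. Levels of mature microRNAs were not measured in these libraries, and a host transcript's level is not that of its microRNA.

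Of 8334 other genes averaging 5 FPKM or more, those whose log2(FPKM + 1) values over the 6 libraries lay nearest to each of the 3 most changed genes were as follows, by the root mean square difference of centred values. Dicer1 was nearest to Hexim1 (0.0299) and Pik3c3 (0.0316). Drosha was nearest to Paxip1 (0.0294) and Notch1 (0.0389), and Stau1 to Tnks (0.0172) and St7l (0.0271). Hexim1, for example, was at 18.2 and 17.9 FPKM in KO, against 23.8 and 24.6 FPKM in WT, and Tnks at 20.4 and 21.1 FPKM in KO, against 15.7 and 16.7 FPKM in WT.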

How the data were processed

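TRIzol-extracted total RNA went through Ribo-Zero depletion before sequencing, per the labels' protocols. The deposited values are FPKM, per the file headers, in 24879 rows for each library, written with decimal commas. Builds GRCm38 and mm10 and the tools Cufflinks 2.2.1, TopHat2 2.1.1 and Bowtie2 2.3.0 are named without roles, per the submitters' processing notes. How strand, annotation and scaling were handled is not stated there. Depth is not stated, so no counting intervals are given.

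Rows without a name (1021) were left out, and for names on several rows the row of highest mean was kept, which left 23406. Values were taken as log2(FPKM + 1), which understates changes of low genes, and a gene was tested with at least 1 FPKM in at least 2 of 6 libraries (12266, all 9 members among them). limma 3.58.1 in R 4.3.3 (two-sided, trended eBayes, called at a Benjamini-Hochberg adjusted p under 0.05 over all tested genes) gave all p-values, SEs and 95% intervals. A run of the fits on simulated data added differences to a small part of the genes. These were larger than any difference of the 9 genes, so that run does not cover calls of their size. KO against WT used 4 libraries, and the difference of effects and 4OHT against vehicle used 6. MUT against HET was described by its differences, beside a limma fit with the spread pooled over the 4 groups. Ratios were described without a test. SDs are over 2 libraries. Gene coordinates come from GENCODE M21 (GRCm38), and sequences from RefSeq. The relative depths come from the commonest ratio of low values to those of WT 1. The members and gene lists were chosen with earlier results of these data known. Outside the members, the text names the 3 genes of smallest p in each list, the 2 nearest profiles of 3 members, Adar, and a few further genes chosen after their values were seen. Alternatives were other pseudocounts, filters, scalings, fits and left-out libraries.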

Additional observations from a re-analysis of the deposited data

How the results depend on the processing

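Over 126 alternatives for single members, 117 left the call and direction as they were and 0 reversed. The call was lost in 7 (Drosha 2, Tarbp2 3, Stau1 2) and gained in 2 (Prkra and Xpo5). The 126 include those of genes that were not called. They also include summing the rows of a name, which could not change the values of members on a single row. The 117 therefore do not measure how firm the 4 calls are. Of 14 alternatives each, Dicer1 kept its call in 14, Drosha and Stau1 in 12 and Tarbp2 in 11. The number of members called in KO against WT, 4, fell without WT 1, WT 2 or KO 2 and rose without KO 1. It was 3 with no filter on low values and 4 under the other pseudocounts, scalings and filter. In MUT against HET, 0 members passed 1.5-fold. By contrast, limma with the spread pooled over the 4 groups called 3, Drosha, Dicer1 and Stau1, and 5309 of all 12266 genes. The rules differ, since limma's call has no fold cut. The difference of effects called 0 members under every alternative run, but over all genes its 492 calls became 0 with no filter and 1192 without KO 1. Same-numbered WT and KO libraries deviated together only weakly (r = 0.18 across genes, 2 pairs, so the numbers are not shown to pair cultures). With a replicate block limma called 5 members, with Xpo5 added (adjusted p = 0.0358), and 7959 genes against 7080. With FPKM alone, the counting error of low genes such as Dicer1, Ago4 or Lin28b is not known.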
